A study of Mus musculus with 22 samples.

Results

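The subject is the set of 57 nuclear genes that encode structural subunits of the mitochondrial respiratory chain in mouse skin fibroblasts. The genes were taken by name, 34 for complex I, 4 for complex II, 8 for complex III and 11 for complex IV, from a table of read counts for 55414 genes, and all 57 had a row. All 57 also passed the filter on low counts, with at least 91 reads in every library. The fibroblasts were sorted from back skin as cells positive for CD34 and PDGFRα, after cells with CD31, CD45, CD117 or EpCAM had been excluded. All mice had the same skin surgery, and EXP mice also received an expander hydrogel under the skin, while CTRL mice received none. Libraries were made 1, 2 and 4 days later. The CTRL arm had 4, 3 and 4 libraries on these days, and the EXP arm had 5, 3 and 3. The labels give no strain, sex or age and do not say whether a library came from 1 mouse or a pool, so a p-value measures the spread between these libraries only.

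The respiratory chain carries electrons from NADH and succinate to oxygen and pumps protons across the inner mitochondrial membrane, and the proton gradient drives ATP synthesis. Complex I takes electrons from NADH, complex II from succinate, complex III passes them from ubiquinol to cytochrome c, and complex IV hands them to oxygen. Most subunits are encoded in the nucleus, made in the cytosol and imported, while a few core subunits of complexes I, III and IV are encoded by mitochondrial DNA. Complex II is encoded by nuclear genes alone and is also an enzyme of the tricarboxylic acid cycle.

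Library totals ran from 21461294 to 30210204 reads, and 3 reads, the level taken as detectable, were 0.0993 to 0.140 CPM, reads scaled to a common library total. Such floors cover counting error only. Replicates of a group differed by more than counting error, with a chi-square per degree of freedom of 26.7 to 403 over 31 pairs. Both markers of the sort were present in all libraries, Pdgfra between 227 and 1023 CPM and Cd34 between 217 and 2348 CPM, but Pdgfra was called higher in EXP on all 3 days (0.84, 1.71 and 0.79 on the log2 scale) and Cd34 lower on days 1 and 2 (-1.74 and -2.07). Levels are CPM scaled by the trimmed mean of M-values (TMM), which sets the bulk of genes equal between libraries. With library totals alone the median of all genes moved to 0.21, 0.49 and 0.36 on days 1, 2 and 4, and of the called genes 66.2%, 90.5% and 80.8% were higher, in place of 48.7%, 57.5% and 57.01%, while the median of the subunits lay 0.18, 0.31 and 0.54 above that of all genes. A gene was called changed at a Benjamini-Hochberg adjusted p under 0.05 in edgeR's quasi-likelihood test, adjusted over the 17554 genes tested. A set of 7 libraries stood apart from the other 15 by the joint level of 192 genes that include no subunit gene: CTRL replicates 1, 2 and 3 and EXP replicates 1 and 2 of day 1, and CTRL replicates 3 and 4 of day 4. They are called the high side of the library split.

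On day 4 subunit genes of all 4 complexes were higher in EXP than in CTRL. Of the 57 genes, 23 were called higher and 0 lower (40.4%), whereas of all genes tested 12.8% were called higher and 9.66% lower. Of the 34 genes that were not called, 31 also had a log2 fold change above 0. The median log2 fold change of the 57 genes was 0.59, against 0.03 over all genes tested. The 23 called genes were 1.37-fold to 1.95-fold higher. These shifts in bulk RNA cannot separate a change per cell from a change in which sorted cells were present.

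Summed over the 57 genes, the day 4 level was 3233, 3774, 2444 and 2763 CPM in CTRL replicates 1 to 4, and 3854, 5155 and 3640.4 CPM in EXP replicates 1 to 3. The second CTRL library thus lay above the third EXP library, and both CTRL libraries of the high side were the lowest of the 7. The subunits made up 0.265% ± 0.0580 of all CTRL reads (SD, n = 4) and 0.457% ± 0.104 of all EXP reads (SD, n = 3). This share is of library totals without TMM. On such totals the median log2 fold change on day 4 was 0.90 for the subunits and also above 0 for all genes tested, at 0.36.

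**Figure D1:**
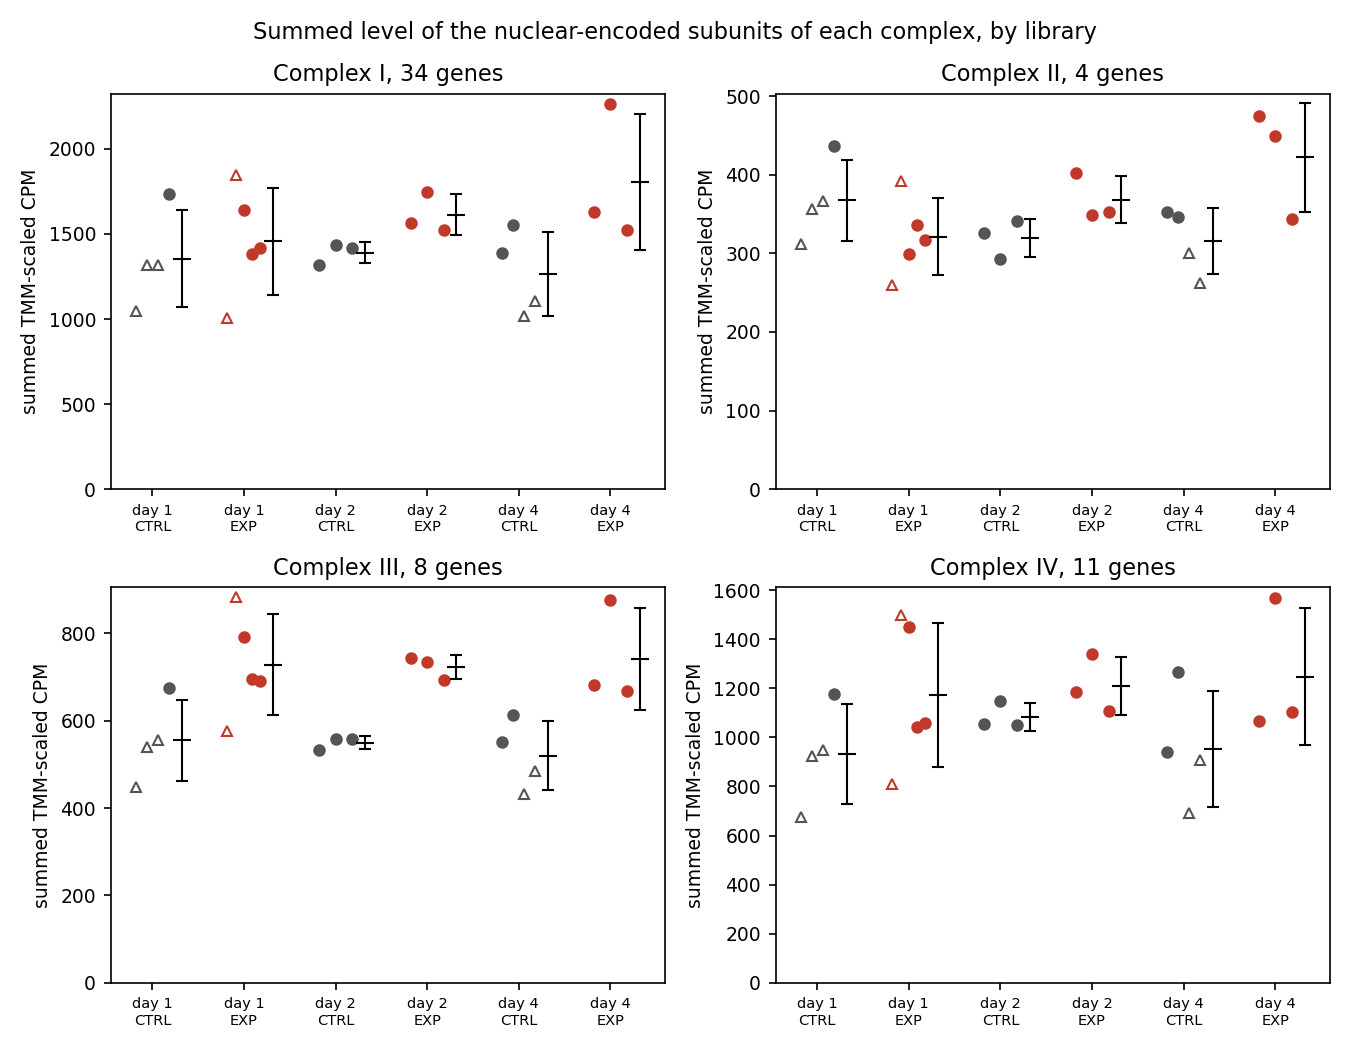
Summed TMM-scaled CPM of the subunit genes of complexes I, II, III and IV (y axes) in each library, by day and arm (x axes). Grey points are CTRL and red points EXP, open triangles mark the high side of the library split, and the black bars give the mean and 1 SD. On day 4 complex III of all 3 EXP libraries, at 667 to 875 CPM, lay above the 4 CTRL libraries, at 433 to 612 CPM, while complexes I, II and IV overlapped.

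Complex I had 13 of its 34 genes called higher on day 4, with a median log2 fold change of 0.59. Ndufb7, an accessory subunit on the intermembrane-space face, had the largest change of the 57. Its level was 31.2, 31.2, 14.8 and 21.5 CPM in the 4 CTRL libraries and 45.5, 61.8 and 37.0 CPM in the 3 EXP libraries. The groups did not overlap, and the log2 fold change was 0.96 ± 0.26 (SE, adjusted p = 0.0135). Ndufa10, an accessory subunit with the fold of a nucleoside kinase, had the smallest adjusted p of the 57. It was at 34.2, 35.3, 31.9 and 29.1 CPM in CTRL and 75.2, 63.7 and 44.1 CPM in EXP. All EXP libraries were above all CTRL libraries, by 0.90 ± 0.18 on the log2 scale (SE, adjusted p = 0.00217).

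Ndufa8, another accessory subunit of the intermembrane-space face, was at 30.8, 31.4, 24.9 and 25.5 CPM in CTRL and at 48.9, 70.9 and 36.3 CPM in EXP on day 4. The groups did not overlap (log2 fold change 0.89, adjusted p = 0.00830). Ndufc2, a subunit of the membrane arm, rose from 24.2 ± 5.05 (SD, n = 4) to 44.4 ± 12.1 CPM (SD, n = 3), adjusted p = 0.0215. Ndufs4, an accessory subunit whose loss in mice causes a Leigh-like encephalopathy, rose from 20.7 ± 3.56 to 36.8 ± 11.8 CPM (adjusted p = 0.0320). Ndufa11, a membrane subunit, rose from 47.3 ± 10.7 to 83.9 ± 34.4 CPM (adjusted p = 0.0294), and here EXP replicate 2 alone stood at 124 CPM. Exons of Ndufa11 overlap those of Vmac on the other strand, and strandedness is not given in the sources used here.

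The 6 measured core subunits of complex I include those that carry the flavin and the iron-sulfur clusters through which electrons pass. On day 4, 4 of the 6 were called higher and 9 of the 28 accessory subunits were, and the median log2 fold changes of these groups were 0.60 and 0.59. Ndufv1, which binds NADH and the flavin, had a log2 fold change of 0.61 (adjusted p = 0.0132), and Ndufv2 and Ndufs3 had 0.59 and 0.61. Ndufs8 rose from 31.2 ± 8.34 (SD, n = 4) to 51.0 ± 13.7 CPM (SD, n = 3), adjusted p = 0.0296. Ndufs1 and Ndufs7 were at 0.27 and 0.40 and were not called. The remaining called accessory subunits were Ndufa9, Ndufb8 and Ndufs5, at 0.70, 0.63 and 0.66. At the other end Ndufb2 was at -0.02, Ndufb11 at 0.09 and Ndufa13 at 0.17, all not called.

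In complex II both membrane anchors were called higher on day 4 and neither catalytic subunit was, though the difference between these pairs was not tested. Sdhc, an anchor, was at 42.1, 40.5, 29.4 and 34.1 CPM in day 4 CTRL and at 60.6, 67.8 and 46.2 CPM in EXP, without overlap (log2 fold change 0.67 ± 0.19 (SE), adjusted p = 0.0149). Sdhd, the other anchor, was at 71.2, 69.2, 62.4 and 66.0 CPM in CTRL and 97.9, 125 and 89.3 CPM in EXP, also without overlap (0.63 ± 0.17, adjusted p = 0.0115). Sdha, the flavoprotein that oxidises succinate, was at 155, 144, 135 and 104 CPM in CTRL and 219, 151 and 137 CPM in EXP, with overlap. Sdhb, the iron-sulfur subunit, averaged 77.2 ± 14.5 CPM (SD, n = 4) in CTRL libraries and 91.0 ± 17.7 CPM (SD, n = 3) in EXP libraries. Neither was called, at adjusted p = 0.197 and 0.408.

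Complex III had 3 of 8 genes called higher on day 4. Uqcrc1, a core protein related to the mitochondrial processing peptidases, was at 138, 129, 136 and 127 CPM in CTRL and at 229, 218 and 180.3 CPM in EXP. The 4 CTRL libraries lay close together and all EXP libraries were above them (log2 fold change 0.66 ± 0.14 (SE), adjusted p = 0.00377). Uqcrfs1, the Rieske iron-sulfur protein, was at 46.9, 44.6, 40.7 and 42.2 CPM in CTRL and 58.0, 62.2 and 59.4 CPM in EXP, which gave the smallest change among the 23 calls (0.46, adjusted p = 0.0191). Uqcr11, a small subunit, had the largest change of the complex, from 43.3 ± 12.8 (SD, n = 4) to 74.1 ± 22.7 CPM (SD, n = 3), adjusted p = 0.0379, but EXP replicate 3 at 55.4 CPM was below CTRL replicate 2 at 58.7 CPM. Uqcr10, Uqcrq, Uqcrc2, Uqcrh and Uqcrb had log2 fold changes of 0.65, 0.49, 0.40, 0.25 and 0.20 and were not called.

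Complex IV had 5 of 11 genes called higher on day 4. Cox5a, a structural subunit on the matrix side, was at 22.5, 31.8, 18.7 and 23.5 CPM in CTRL and at 50.5, 55.3 and 33.6 CPM in EXP, without overlap (log2 fold change 0.95 ± 0.21 (SE), adjusted p = 0.00483). Cox6b1, which lies at the dimer interface, rose from 87.3 ± 20.6 (SD, n = 4) to 157 ± 53.9 CPM (SD, n = 3), adjusted p = 0.0173, with EXP replicate 3 at 110 CPM just under CTRL replicate 2 at 112 CPM. Cox5b rose from 24.7 ± 4.32 to 41.6 ± 12.8 CPM (adjusted p = 0.0128). Ndufa4, first assigned to complex I and later found in complex IV, rose from 55.9 ± 18.8 to 93.2 ± 23.4 CPM (adjusted p = 0.0471), and Cox8a from 96.3 ± 21.9 to 141 ± 22.9 CPM (adjusted p = 0.0361). Cox6c and Cox7b were the members of complex IV below 0, at -0.33 and -0.15, and were not called.

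In 17 of the 23 called genes all EXP libraries lay above all CTRL libraries on day 4, and with Ndufa2, which was not called, this held for 18 of the 57, against 13.8% of all genes tested. Leaving out 1 library at a time moved the number of calls between 3 and 36. It was 3 without EXP replicate 2, which was the highest EXP library for 49 of the 57 genes, 11 without EXP replicate 1, 10 and 13 without CTRL replicates 3 and 4, and 36 without EXP replicate 3, the lowest EXP library for 39. Of all genes tested, 6.91%, 5.94%, 8.75%, 9.52% and 15.1% were called higher in these fits, in the same order. Without EXP replicate 2 the share of the subunits was thus not above that of all genes. The median log2 fold change stayed between 0.38 and 0.72 in these fits. The calls of Ndufa10, Uqcrc1 and Cox5a were kept in all 22 fits, with log2 fold changes of at least 0.73, 0.59 and 0.79.

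Single libraries decided most of the other day 4 calls. Without EXP replicate 2, Ndufb7 (0.73), Ndufa8 (0.58), Cox5b (0.46) and Sdhd (0.46) lost the call, and only that library had this effect on them. Sdhc was lost without EXP replicate 1 or 2, Ndufc2 and Cox6b1 without CTRL replicate 3 or EXP replicate 2, and Ndufa11 without CTRL replicate 3 or 4 or EXP replicate 2. Uqcrfs1 was lost without CTRL replicate 3 or EXP replicate 1 or 2, and Ndufs4, Ndufs8 and Uqcr11 without CTRL replicate 3 or 4 or EXP replicate 1 or 2. Cox8a was lost in 5 fits and Ndufa4 in 15 of the 22. Their lowest log2 fold changes were 0.53 for Sdhc, 0.62 for Ndufc2, 0.54 for Cox6b1, 0.42 for Ndufa11, 0.41 for Uqcrfs1, 0.55 for Ndufs4, 0.46 for Ndufs8, 0.49 for Uqcr11, 0.42 for Cox8a and 0.50 for Ndufa4.

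**Figure D2:**
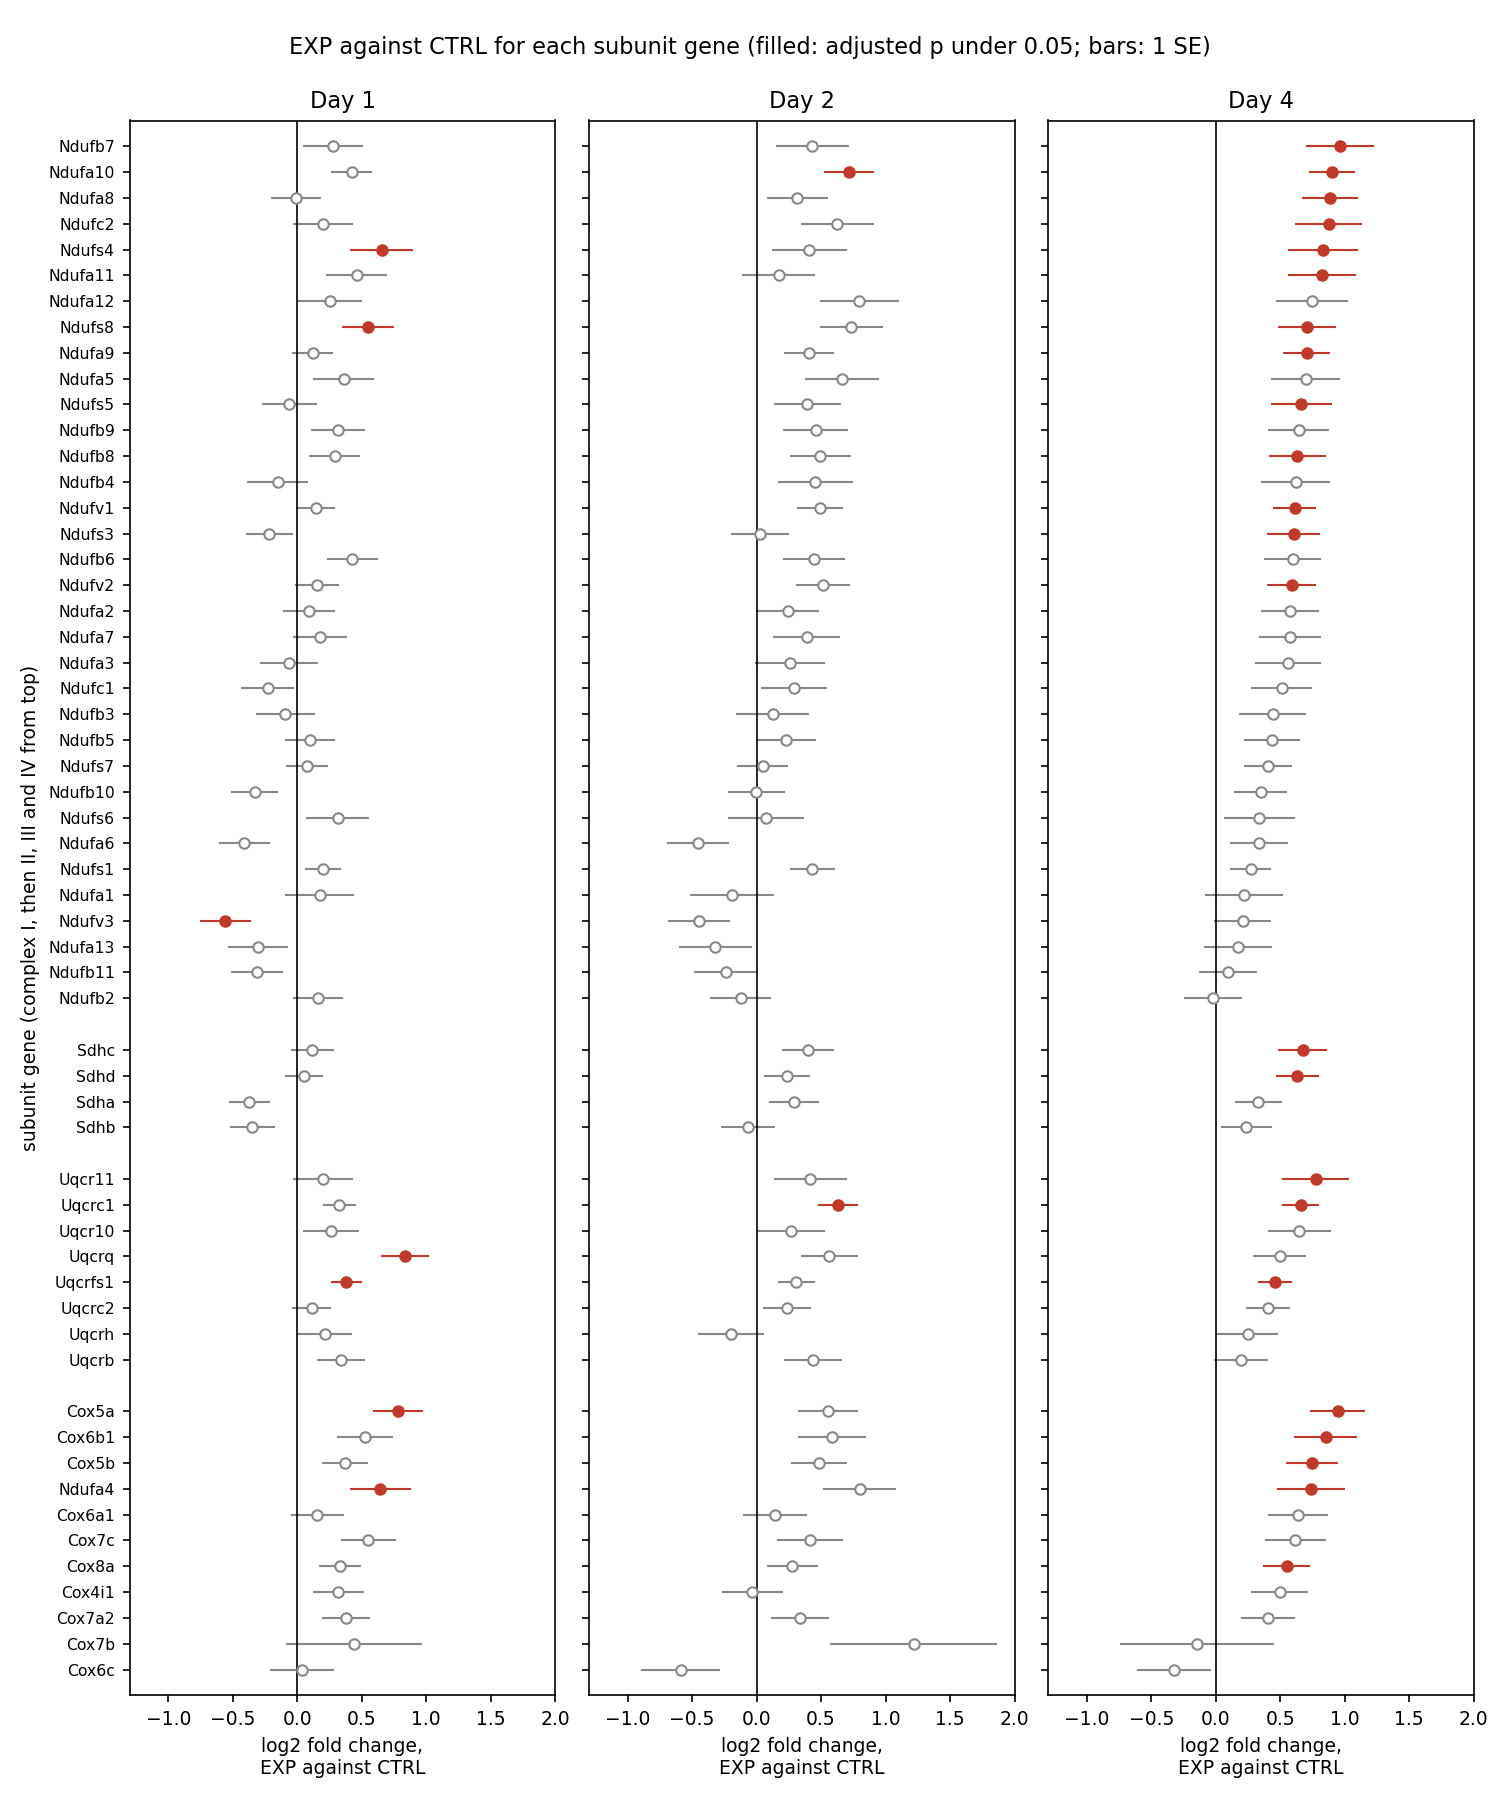
Log2 fold change of EXP against CTRL (x axes) for each of the 57 subunit genes (y axis, by complex and by day 4 value) on days 1, 2 and 4. Filled red points passed an adjusted p of 0.05, open points did not, and bars are 1 SE. Day 4 has 23 filled points, all to the right of 0, while day 1 has 7, with Ndufv3 to the left, and day 2 has 2.

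The library split ran along the day 4 contrast, since its 2 high-side libraries were CTRL and no day 4 EXP library was on that side. Against the 2 low-side CTRL libraries alone, whose subunit sums were 3233 and 3774 CPM, 18 subunit genes were higher in all 3 EXP libraries, 17 of them among the 23 called, compared with 20.5% of all genes tested. A gene above all 4 CTRL libraries is above these 2 by necessity, so the count could not fall below the 18 found against all 4. Against all 4 the share of all genes was 13.8%. The median log2 ratio of the EXP mean to the mean of the 2 low-side libraries was 0.38. A fit of the low-side libraries called 0 of the 57 genes with a median log2 fold change of 0.38, and 2.95% of all genes were called higher. In that fit 16 of the 57 passed an unadjusted p of 0.05, a count that was not made over all genes. A fit of all days that left out only the 2 high-side day 4 CTRL libraries called 2, beside 4.27% of all genes. With the split as a covariate 11 were called, beside 9.71% of all genes, with a median of 0.46. When day 4 was fitted on its own, 2 were called, beside 4.68% of all genes, with a median of 0.57.

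Markers of other cells also differed on day 4. The 7 adipocyte markers (Adipoq, Plin1, Cidec, Cfd, Lep, Fabp4 and Lipe) summed to 3.77 to 6.02 CPM in CTRL, with Plin1, Cidec and Lep at or under the floor, and to 46.0, 181 and 522 CPM in EXP replicates 1, 2 and 3. The order within EXP was not that of the subunits, since EXP replicate 3 had the highest adipocyte sum and the lowest subunit sum. With the adipocyte sum as a covariate, 0 subunit genes were called on day 4 and 0.291% of all genes were called higher, while the median log2 fold change of the subunits was 0.62. Because every EXP library exceeded every CTRL library in this sum, it and the arm cannot be told apart on day 4. The 4 red blood cell markers summed to 2.26 to 11.3 CPM in CTRL and 10.6 to 97.1 CPM in EXP. The 8 markers of skeletal muscle, a tissue rich in respiratory chain, summed to 1.54 to 3.23 CPM in CTRL and 1.14 to 4.54 CPM in EXP. Myh4, Myh1, Tnnc2 and Atp2a1 were at or under the floor in both arms, while 1 of the 3 muscle markers tested was called higher. The 8 immune markers summed to 107 to 149 CPM in CTRL and 71.1 to 142 CPM in EXP, and 2 of the 5 tested were called higher. The 6 endothelial markers summed to 0.168 to 3.39 CPM in CTRL and 2.28 to 11.6 CPM in EXP. The 8 fibroblast markers (Pdgfra, Cd34, Col1a1, Col1a2, Col3a1, Dcn, Lum and Dpt) summed to 267657 to 369994 CPM in CTRL and 83459 to 280480 CPM in EXP. Pdgfra and Cd34, at the levels given above, were a small part of this sum. Of the 8, 1 (Pdgfra) was called higher and 3 were called lower, beside 12.8% and 9.66% of all genes. The part of all these marker differences in the subunit levels was not tested.

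Transcript length was a second property that moved with the arm. The subunit transcripts are short, with a median of 861 bases for the principal transcript against 3020 over all genes tested, and from 419 bases for Ndufa1 to 4371 for Ndufb2. With a trend on transcript length removed from each library, the day 4 fit called 12 subunit genes higher and 1 lower, beside 12.4% and 9.35% of all genes, and the median log2 fold change was 0.24, against 0.02 over all genes tested.

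On day 1, 6 subunit genes were called higher, 10.5% of the 57 against 13.9% of all genes tested, and 1 was called lower, against 14.7% of all genes. Neither share was above that of all genes. The median log2 fold change was 0.20, against 0.02 over all genes. The calls were Ndufs4 and Ndufs8 in complex I, Uqcrq and Uqcrfs1 in complex III, and Cox5a and Ndufa4 in complex IV. Uqcrq, a small accessory subunit of complex III, was at 72.6, 98.6, 101 and 107 CPM in CTRL and between 136 and 212 CPM in the 5 EXP libraries, with a median of 149 CPM. It was the 1 subunit gene without overlap between the arms on day 1, against 11.7% of all genes with every EXP library above every CTRL library (log2 fold change 0.83 ± 0.18 (SE), adjusted p = 0.00191).

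Cox5a on day 1 was at 20.2, 22.5, 23.7 and 33.6 CPM in CTRL and at 30.3, 53.1, 44.4, 42.5 and 44.3 CPM in EXP. Only EXP replicate 1 fell into the CTRL range, and the log2 fold change was 0.78 ± 0.19 (SE, adjusted p = 0.00471). Uqcrfs1 rose from 43.6 ± 5.64 (SD, n = 4) to 56.8 ± 7.33 CPM (SD, n = 5), adjusted p = 0.0196. Ndufs4 rose from 19.3 ± 6.04 to 30.4 ± 8.33 CPM (adjusted p = 0.0471), Ndufs8 from 36.8 ± 9.64 to 53.9 ± 9.71 CPM (adjusted p = 0.0446) and Ndufa4 from 64.5 ± 13.7 to 101 ± 30.3 CPM (adjusted p = 0.0438). All 4 genes overlapped between the arms. Exons of Cox5a overlap Gm26631 on the other strand.

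Ndufv3, an accessory subunit of the NADH-binding module, was the 1 gene called lower. It was at 41.5, 43.2, 42.7 and 56.3 CPM in day 1 CTRL and at 20.96, 42.3, 35.7, 27.7 and 29.5 CPM in EXP. EXP replicate 2 lay within the CTRL range, and the log2 fold change was -0.56 ± 0.19 (SE, adjusted p = 0.0365). All 4 genes of complex II were uncalled on day 1. The catalytic subunits Sdha and Sdhb were at -0.37 and -0.35, while the anchors Sdhc and Sdhd were at 0.12 and 0.05. All 8 genes of complex III and all 11 of complex IV had a log2 fold change above 0, but 22 of the 34 in complex I did.

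Some day 1 libraries were low or high for nearly all subunit genes. CTRL replicate 1 was the lowest of its group for 56 of the 57 genes and EXP replicate 1 for 52, and CTRL replicate 4, the 1 low-side CTRL library of the day, was the highest for 52. Summed levels were 2484, 3139, 3190.1 and 4025 CPM in CTRL and 2652, 4621, 4179.8, 3454 and 3484 CPM in EXP, so the arms overlapped. The 8 fibroblast markers summed to 211027 to 284126 CPM in CTRL and 93627 to 171516 CPM in EXP, without overlap. Of the 8, 1 (Pdgfra) was called higher and 4 were called lower, beside 13.9% and 14.7% of all genes. The part of this in the subunit levels was not tested. The count of genes called higher was 13 without EXP replicate 1 and 12 without CTRL replicate 4, and it was 2 without CTRL replicate 1 or EXP replicate 2 and 3 without CTRL replicate 2 or 3, EXP replicate 3 or day 2 EXP replicate 1. These counts stood beside 10.8% to 14.0% of all genes called higher in the same fits. The median log2 fold change was 0.08 without CTRL replicate 1, 0.09 without EXP replicate 2, 0.13 without EXP replicate 3, 0.31 without CTRL replicate 4 and 0.33 without EXP replicate 1. The calls of Uqcrq and Cox5a were kept in all 22 such fits (lowest 0.73 and 0.69). Uqcrfs1 was lost without CTRL replicate 1 or EXP replicate 2 (lowest 0.30), Ndufa4 in 6 fits (lowest 0.53), Ndufs8 in 10 (lowest 0.45), Ndufs4 in 14 (lowest 0.49) and Ndufv3 in 11 of 22 (-0.69 to -0.41). With the transcript-length trend removed, 7 subunit genes were called higher and 9 lower on day 1, where 13.5% of all genes were called higher and 15.9% lower, and the median was -0.08.

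On day 2 few subunit genes passed the test. Those called were 2 higher and 0 lower, 3.51% of the 57, against 7.72% and 5.71% of all genes tested. An unadjusted p of 0.05 was passed by 16 of the 57 and by 4906 of the 17554 genes tested, which are near-equal shares. The median log2 fold change was 0.34, against 0.02 over all genes. In 37 of the 57 genes all 3 EXP libraries lay above all 3 CTRL libraries, compared with 20.9% of all genes tested. Summed levels were 3229, 3433 and 3365 CPM in CTRL and 3896, 4169.5 and 3674 CPM in EXP, without overlap. The sum of the 8 fibroblast markers also separated the arms, at 328845 to 408562 CPM in CTRL and 68203 to 171270 CPM in EXP. Of the 8, 1 (Pdgfra) was called higher and 5 were called lower, beside 7.72% and 5.71% of all genes. The part of this in the subunit levels was not tested.

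Both day 2 calls were genes called again on day 4. Ndufa10 was at 34.5, 35.3 and 40.6 CPM in CTRL and 70.0, 60.9 and 50.9 CPM in EXP (log2 fold change 0.72 ± 0.19 (SE), adjusted p = 0.0172). Uqcrc1 was at 138, 136 and 155 CPM in CTRL and 259, 205 and 201 CPM in EXP (0.63 ± 0.15, adjusted p = 0.0100). Neither gene overlapped between the arms. Among genes that were not called, Ndufa4 averaged 54.6 ± 4.17 CPM in the CTRL arm and 95.1 ± 2.95 CPM in the EXP arm (SD, n = 3 each, adjusted p = 0.0648), and Sdhc at 38.7 ± 2.77 and 51.0 ± 5.19 CPM (adjusted p = 0.206). The largest log2 fold change of the day, 1.22 ± 0.65 (SE) for Cox7b, was not called (adjusted p = 0.230). Ndufa6, Ndufv3 and Cox6c had all EXP libraries below all CTRL libraries, at -0.46, -0.45 and -0.59, and were not called. These were 3 of the 57 genes, against 3225 of the 17554 genes tested, which is a larger share.

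The day 2 calls depended on single libraries. Without CTRL replicate 2 or EXP replicate 1 no subunit gene was called, and without CTRL replicate 1 the count was 1, while without day 1 EXP replicate 1 or day 4 CTRL replicate 3 it was 4. Of all genes, 3.63%, 3.26%, 4.42%, 7.88% and 7.81% were called higher in these fits, in the same order. Ndufa10 had a log2 fold change of at least 0.61 and Uqcrc1 of at least 0.51 in these fits. When day 2 was fitted on its own 14 subunit genes were called higher, beside 11.9% of all genes, and limma voom with quality weights also called 14, beside 13.5% of all genes. In the 3 EXP libraries the adipocyte markers summed to 95.3, 9.72 and 19.7 CPM against 4.22 to 8.31 CPM in CTRL.

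**Figure D3:**
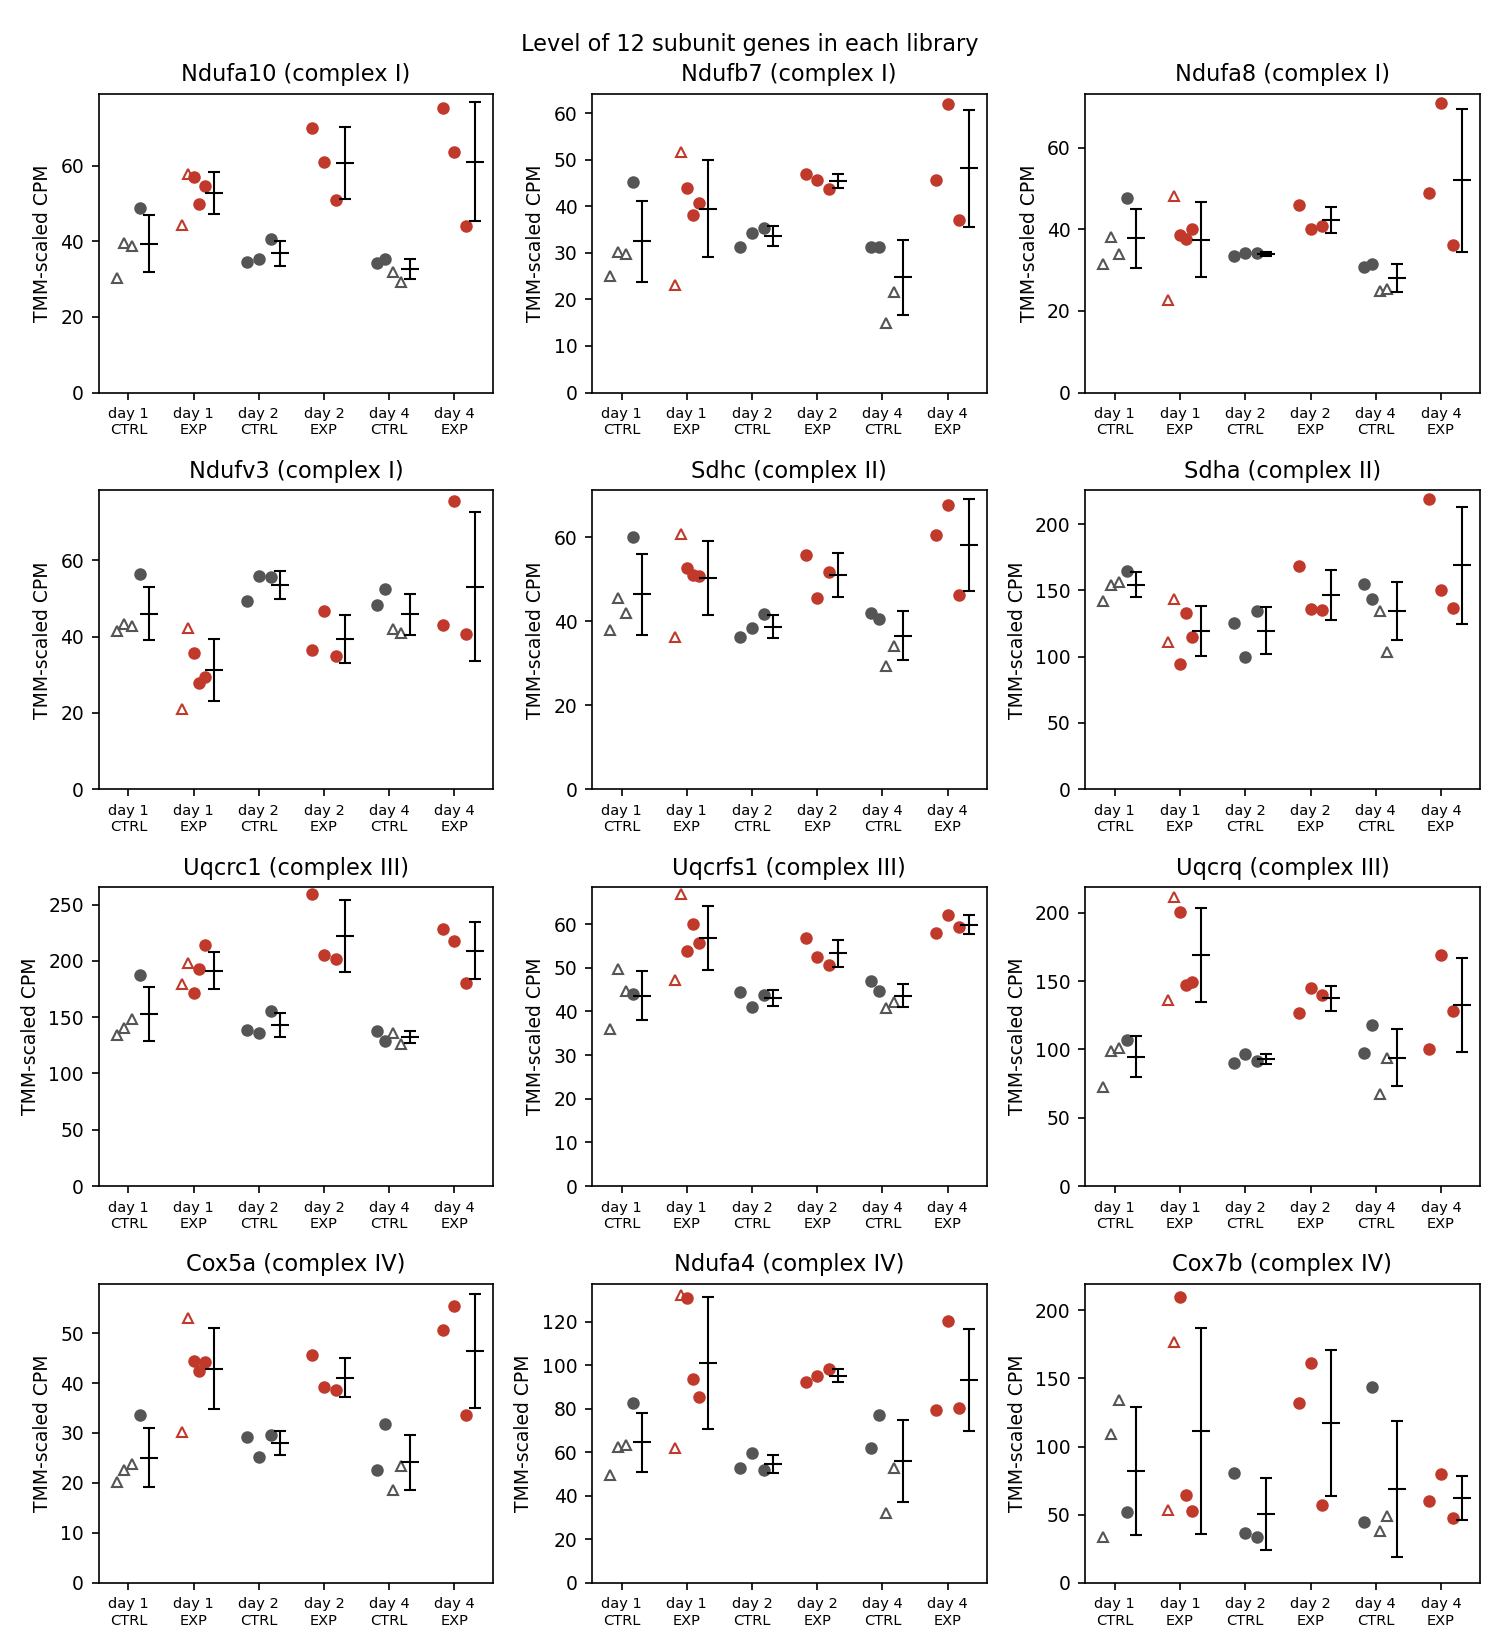
TMM-scaled CPM of 12 subunit genes (y axes) in each library by day and arm (x axes), with CTRL in grey, EXP in red, open triangles for the high side of the library split and black bars for the mean and 1 SD. Uqcrc1 and Ndufa10 of EXP lie above CTRL without overlap on days 2 and 4, Ndufv3 of EXP is mostly below CTRL on day 1, and Cox7b is spread from 33.3 to 210 CPM.

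Across the 3 days, 25 of the 57 genes were called on at least 1 day and 32 on none. Of these, 16 were called higher on day 4 only, 5 on days 1 and 4 (Ndufa4, Ndufs4, Ndufs8, Uqcrfs1 and Cox5a), 2 on days 2 and 4 (Ndufa10 and Uqcrc1), and 0 on all 3. The log2 fold change was above 0 on every day in 37 genes and was largest on day 4 in 48. In 14 genes, among them Sdha, Sdhb, Ndufa8 and Ndufv3, it was below 0 on day 1 and above 0 on day 4.

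The difference between days was itself tested and passed for few of these genes. In the joint test of equal EXP effects on the 3 days, 0 of the 57 genes were called by edgeR, against 8.82% of all genes tested. An unadjusted p of 0.05 was passed by 6 of the 57 and by 4491 of the 17554 genes tested, which is a larger share. DESeq2's likelihood ratio test called 1. The gene nearest to the threshold in each complex was Ndufa8 in complex I (adjusted p = 0.117), Sdha in II (adjusted p = 0.0921), Uqcrc1 in III (adjusted p = 0.389) and Cox6a1 in IV (adjusted p = 0.477). In the direct comparison of day 4 with day 1, 1 gene was called, against 8.16% of all genes called higher. This was Ndufa8, whose EXP effect was 0.90 ± 0.29 (SE) larger on day 4 (adjusted p = 0.0458). Its EXP level went from 37.5 ± 9.21 CPM on day 1 (SD, n = 5) to 52.0 ± 17.5 CPM on day 4 (SD, n = 3), and its CTRL level from 37.8 ± 7.17 to 28.2 ± 3.45 CPM (SD, n = 4 each). Sdha had a difference of 0.70 ± 0.24 (SE) that was not called (adjusted p = 0.0580).

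Within the arms few subunit genes passed a test of change over the days. Over days 1, 2 and 4 within EXP, 1 of the 57 genes was called in the joint test, against 14.3% of all genes. This was Ndufv3 (adjusted p = 0.0421), at 31.2 ± 8.12, 39.3 ± 6.33 and 53.1 ± 19.5 CPM on days 1, 2 and 4 (SD, n = 5, 3 and 3). EXP replicate 2 of day 4, at 75.6 CPM, was at a higher level than the other replicates at 43.2 and 40.6 CPM. From day 1 to day 4 within EXP, Ndufv3 and Sdha were called higher, against 12.1% of all genes, and 49 of the 57 genes were above 0, with a median log2 difference of 0.26. Within CTRL 9 of the 57 were above 0 over the same days, with a median of -0.14. In the joint test within CTRL 0 were called, against 0.291% of all genes, and DESeq2 and limma voom called 0. At an unadjusted p of 0.05 the edgeR test passed 0 of the 57, against 2490 of the 17554 genes tested.

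Levels can be compared between subunit genes per length only, here as CPM per kilobase of the longest annotated transcript, averaged over the 22 libraries. The highest were Ndufa1 (274), Cox4i1 (251), Cox6a1 (227), Cox8a (212) and Cox6b1 (194 CPM per kilobase). The lowest were Ndufb2 (4.87), Ndufb4 (6.51), Ndufa12 (7.44), Ndufb7 (8.28) and Ndufb5 (10.6 CPM per kilobase). The order depended on the transcript chosen: per kilobase of the principal transcript Cox6c came first with 298, and Ndufb7, whose longest transcript has 4435 bases and whose principal transcript has 623, stood at 58.9. Complex II holds equal numbers of its 4 subunits, while their transcripts were at unequal levels: Sdhb was at 70.7, Sdhd at 66.7, Sdha at 47.9 and Sdhc at 14.7 CPM per kilobase of the principal transcript.

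Counts of some of these genes are uncertain. Exons of 19 overlap another gene in the annotation used, and 19 share a stretch of at least 200 bases and 95% identity with another gene. In 12 of them (Ndufa12, Ndufb4, Ndufb5, Ndufb6, Ndufb11, Ndufs3, Ndufs5, Ndufs6, Uqcrb, Cox5b, Cox6c and Cox7c) the reads counted for the genes sharing the stretch came to over 10% of those of the subunit gene itself. For Ndufb5 and Ndufb6, which are also among the genes with an exon overlap, the gene sharing the stretch was Mrpl47 and Smim27. The genes sharing the stretch held more reads than the subunit gene for Ndufa12 (27760 against 6064) and Ndufb4 (6271 against 3656), both among the lowest per kilobase. The same held for Ndufs5 (14142 against 10540) and Cox5b (27083 against 20082), both called higher on day 4. Of the 31 genes with neither an overlap nor such a stretch, 16 were called higher on day 4.

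The subunit genes varied together from library to library within groups. After group means were removed, the mean Pearson correlation of log2 CPM over the 22 libraries was 0.695 for 1596 pairs of subunit genes (median 0.774), compared with 0.00289 for all pairs of tested genes. Pairs from the same complex had a median of 0.792 and pairs from different complexes 0.757. These libraries share depth and composition, so the values are descriptions only. Uqcr11 had the highest median correlation with the other subunits (0.869), followed by Cox6b1 (0.859) and Ndufa11 (0.854). The lowest were Ndufs1 (0.0638), Sdha (0.190) and Uqcrc1 (0.344).

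**Figure D4:**
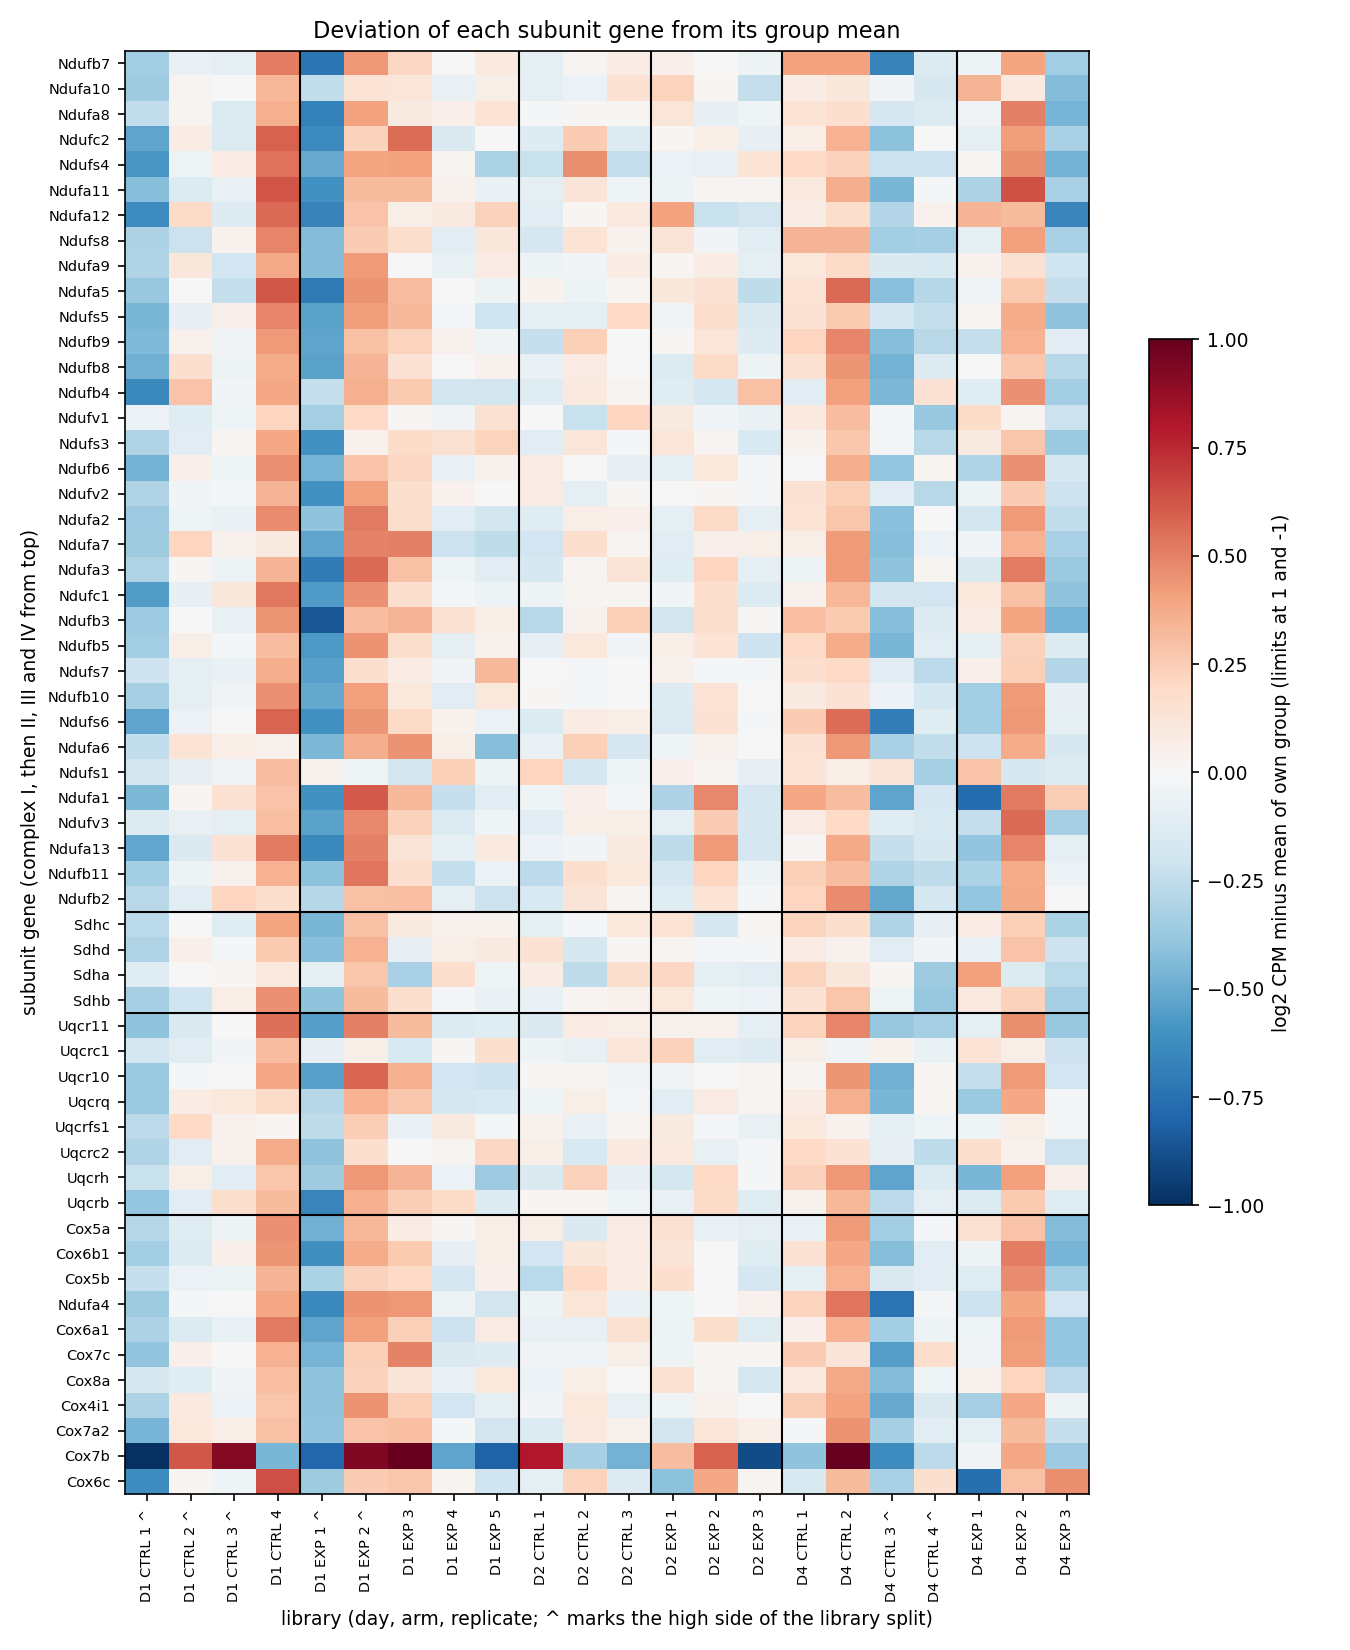
Deviation of log2 CPM from the mean of the library's own group (colour, red above and blue below) for the 57 subunit genes (rows, by complex) in the 22 libraries (columns, by day and arm, with the high side of the library split marked). Whole columns share a colour: replicate 1 of CTRL and of EXP on day 1 is blue in nearly all rows, and replicate 2 of EXP on day 4 is red. Cox7b shows the widest range of colours.

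This shared variation ran against the library split, which was built without subunit genes. The correlation with the split score was below 0 for 56 of the 57 genes, with a median of -0.469, against -0.0307 for all genes tested. Cox7b was the exception (0.0105). On day 4 the summed subunits of CTRL were 2444 and 2763 CPM on the high side and 3233 and 3774 CPM on the low side.

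Promoters of the subunit genes were read for 4 short motifs of factors known to act on such genes: CGCATGCG, the core of sites for nuclear respiratory factor NRF1; CCGGAAGT for ETS factors, which include GABP (nuclear respiratory factor NRF2); AAGATGGCG for YY1; and TCAAGGTCA for estrogen-related receptors. The windows were those of RefSeq on build GRCm38.p6, from 250 bases before to 50 bases after the start of each gene, read on both strands, and 48 of the 57 genes had at least one. The windows of the subunit genes were richer in G and C, with a median of 58.7% against 52.7% over all windows, and the part of this in the shares of motifs was not tested. The NRF1 core stood in the windows of 5 of 48 genes (10.4%), compared with 2.07% of 27025 genes, and the YY1 motif in 5 (10.4%), compared with 1.64%. The ETS motif stood in 4 (8.33% against 4.31%) and the estrogen-related receptor motif in 1 (2.08% against 0.466%). Of the genes with an NRF1 core, Ndufa8, Ndufa11, Uqcr11 and Uqcrc1 were called higher on day 4 and Cox6a1 was not. Among the 48 genes with a window, 22 were called higher on day 4 and 26 were not. The NRF1 core stood in 4 of these 22 and 1 of these 26, and the ETS motif in 3 and 1. The YY1 motif stood in 2 and 3, and the estrogen-related receptor motif in 1 and 0. A difference between called and uncalled genes was not tested. The 5 YY1 matches, in Ndufa9, Ndufc1, Ndufs4, Ndufs6 and Ndufs7, all lay 23 to 36 bases after the start. For 34 of the 48 genes none of these letters were found. A match describes letters in the window and not a bound site.

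The matches whose motif lies wholly before the start are shown, with up to 11 bases on either side and cut off at the start, since they place the motifs in the promoters of Ndufa8, Ndufa11 and Uqcr11, called higher on day 4, and of Cox6a1 and Uqcrh, not called. Each is printed 5′ to 3′ on the strand of the gene, with the motif in capitals.
Ndufa8: gtcgctggagaCGCATGCGc
Ndufa11: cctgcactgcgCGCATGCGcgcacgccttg
Cox6a1: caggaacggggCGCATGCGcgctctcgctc
Uqcr11: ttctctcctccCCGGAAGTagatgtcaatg
Uqcrh: gagtatgccgcACTTCCGGcca
On GRCm38.p6 these stretches are chr2:36049339-36049358 (minus strand) for Ndufa8, chr17:56717692-56717721 (plus strand) for Ndufa11, chr5:115349101-115349130 (minus strand) for Cox6a1, chr10:80406869-80406898 (minus strand) for Uqcr11 and chr4:116075071-116075092 (minus strand) for Uqcrh. The NRF1 core reads the same on both strands and begins 9 bases before the start of Ndufa8, 59 before that of Ndufa11 and 161 before that of Cox6a1. The ETS motif begins 66 bases before the start of Uqcr11 on the strand of the gene and 11 bases before that of Uqcrh on the other strand.

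Other gene lists of the pathway were read beside the subunits and beside all genes tested, of which 13.9%, 7.72% and 12.8% were called higher and 14.7%, 5.71% and 9.66% lower on days 1, 2 and 4. Of the 13 subunits encoded by mitochondrial DNA, 10 were called higher on day 1, 1 on day 2 and 0 on day 4, with median log2 fold changes of 0.60, 0.39 and 0.10. Among them mt-Nd1, a core subunit of complex I, went from 948 to 1943 CPM on day 1 (adjusted p = 0.000524), and mt-Nd3 rose by 0.88 on the log2 scale. For ATP synthase (complex V), 2, 2 and 6 of 17 genes were called higher on days 1, 2 and 4 and 0 lower, with a median of 0.44 on day 4; Atp5g3 and Atp5l led on day 1 (0.69 and 0.62), Atp5mpl and Atp5b on day 2 (0.75 and 0.70) and Atp5g2 and Atpif1 on day 4 (1.43 and 0.91). For the large subunit of the mitochondrial ribosome, 11, 5 and 22 of 48 were called higher and 0, 1 and 0 lower, with a day 4 median of 0.55, led by Mrpl22 (1.31) and Mrpl34 (1.25), and on day 1 by Mrpl47 and Mrpl52 (1.21 and 1.11).

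Assembly factors help to build the complexes without staying in them. Of 46 tested for complexes I to IV, 2 were called higher and 9 lower on day 1, 2 and 2 on day 2, and 3 and 1 on day 4, with a day 4 median of 0.26. The share called higher, 4.35%, 4.35% and 6.52%, was below that of all genes on each day, and the 19.6% called lower on day 1 stood beside 14.7% of all genes. Sdhaf4, an assembly factor of complex II, fell by 1.15 on day 1 (log2, adjusted p = 0.000558), and Tmem126b, of complex I, fell by 0.85. Foxred1 and Cox18 rose by 0.87 and 1.14 on day 4. On day 2 Cox17, a copper chaperone of complex IV, rose by 1.14, and Cox19 fell by 1.06 on day 2 and by 0.71 on day 4. Of 22 genes of protein import and inner membrane organisation, 13, 6 and 5 were called higher and 1, 0 and 0 lower, with Timm10 and Chchd4 rising by 1.64 and 1.60 on day 1 and Chchd4 and Phb2 by 1.24 and 0.83 on day 4.

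Of 17 genes of the tricarboxylic acid cycle and its entry, 3, 7 and 5 were called higher on days 1, 2 and 4 and 0 lower. Pdhx and Dlst rose by 0.68 and 0.59 on day 1, and Mdh2 and Cs by 0.88 and 0.81 on day 2 and by 0.89 and 0.82 on day 4. Of 17 glycolysis genes 8, 7 and 11 were called higher and 2, 1 and 0 lower, with a day 4 median of 0.96, and Eno1 and Pkm rose by 1.65 and 1.56. On day 1 the glucose transporter Slc2a1 rose by 1.26 and Pdk1, which inhibits pyruvate dehydrogenase, fell by 1.28. Among 14 genes of the electron carriers, cytochrome c and ubiquinone synthesis, 2, 1 and 3 were called higher and 2, 0 and 1 lower, and the shares called higher on days 1 and 2, 14.3% and 7.14%, were near those of all genes. Coq7 rose on days 2 and 4, by 0.98 and 1.03, Coq3 rose by 1.37 on day 4, Pdss1 rose by 0.93 and Coq8a fell by 1.73 on day 1. Of 16 transcriptional regulators of mitochondrial genes 4, 2 and 1 were called higher and 1 on each day lower, 6.25% in each direction on day 4, below the shares of all genes. Tfb2m rose by 1.04 on day 1, Tfb1m fell by 1.67 and 1.71 on days 1 and 2, Polrmt rose by 0.78 on day 2, and Hif1a rose by 0.95, 0.61 and 0.75 on days 1, 2 and 4. Gabpb1, a subunit of GABP, rose by 0.55 on day 1 and fell by 0.70 on day 4.

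**Figure D5:**
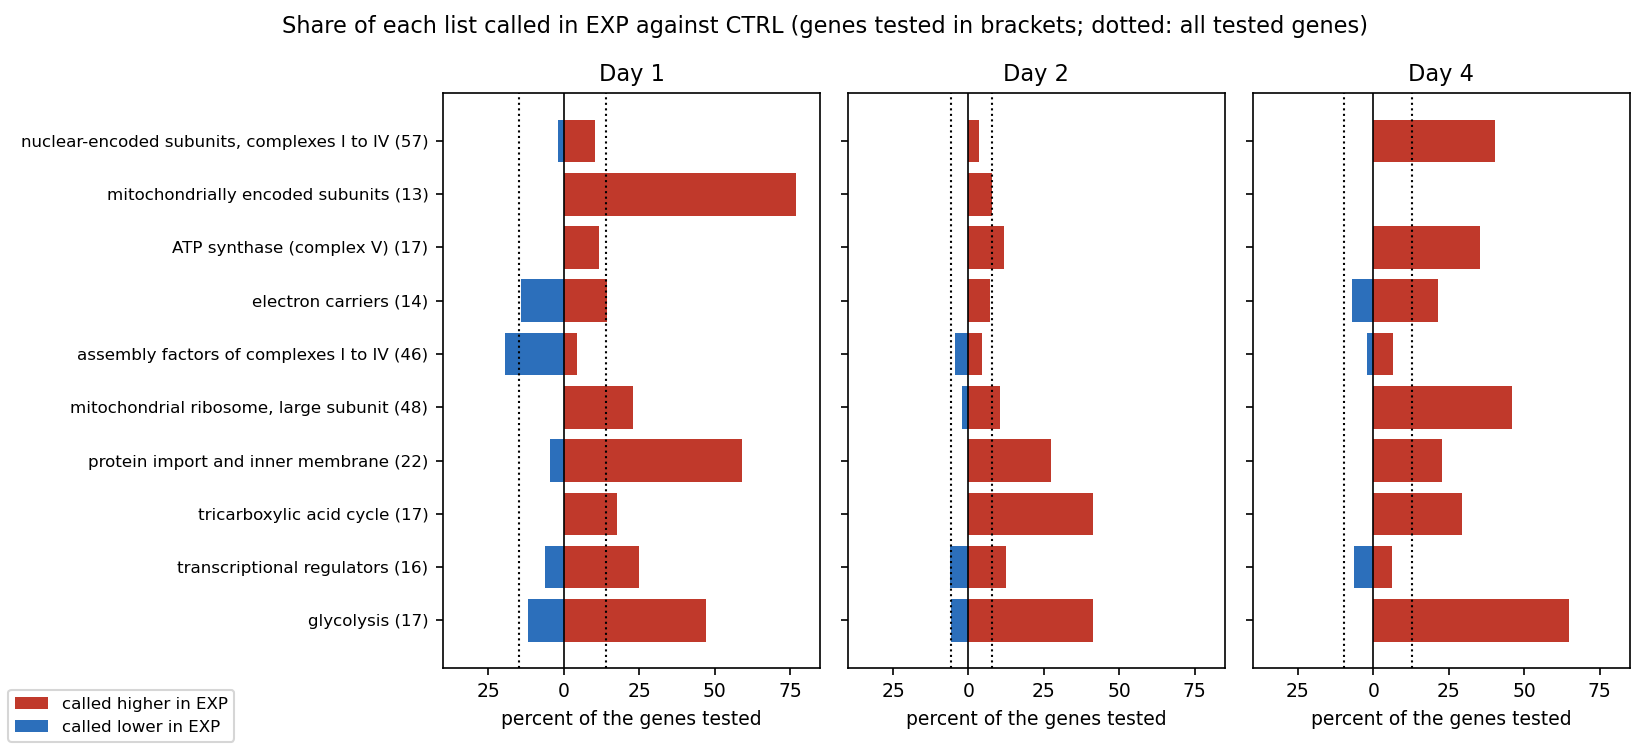
Percent of the tested genes of each list (x axes, bars to the right called higher and to the left called lower in EXP) on days 1, 2 and 4, with the number of genes tested in brackets and dotted lines for all tested genes. The 57 nuclear-encoded subunits stand at 10.5%, 3.51% and 40.4% called higher, and the 13 mitochondrially encoded subunits have 10 genes called on day 1 and none on day 4.

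Structural subunits of complexes I, III and IV outside the set were measured too. Cyc1, the cytochrome c1 of complex III, rose on day 1 (0.60, adjusted p = 0.00166), and Ndufab1, the mitochondrial acyl carrier protein, on day 2 (0.82, adjusted p = 0.0159). Ndufb1-ps and Cox7a2l were not called on any day and had log2 fold changes of 0.32 and 0.46 on day 4. A further list held isoforms that replace common subunits in other tissues or in hypoxia, and Cox7a2l was counted in it as well. Of the 6 tested genes of this list, 0 were called higher on any day and 2, 1 and 0 were called lower on days 1, 2 and 4. The number above 0 was 2, 0 and 4 of the 6, with medians of -0.76, -1.02 and 0.58. Ndufa4l2, a hypoxia-inducible relative of Ndufa4, fell by 1.99 on day 1 (173 to 43.6 CPM, adjusted p = 0.00798) and by 3.17 on day 2 (401 to 44.6 CPM, adjusted p = 0.00549), and was at -1.24 on day 4, not called (adjusted p = 0.148). Cox6b2 fell by 1.22 on day 1 (1.29 to 0.556 CPM, adjusted p = 0.0445). Cox4i2, Cox7a1 and Cox8b, at under 1 CPM on average, were not called, and Cox6a2, Cox7b2 and Cox8c were too low to be tested.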

How the data were processed

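Bulk RNA sequencing gave 1 table of read counts per gene for 22 libraries. The authors deposited these counts as whole numbers, without normalization; per the submitters' processing notes they used Trimmomatic and mouse build mm39. The aligner, counter, annotation release and strandedness are not given in the sources used here. Of 55414 identifiers, 52081 had a symbol in the GENCODE M21 annotation. Genes were kept by filterByExpr over the 6 groups of day and arm (minimum count 10), which left 17554.

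All 22 libraries entered 1 edgeR (4.0.16, R 4.3.3) quasi-likelihood fit with TMM scaling, robust dispersion and 16 residual degrees of freedom. Log2 fold changes, their SE and Benjamini-Hochberg adjusted p-values come from it, and a call is an adjusted p under 0.05. DESeq2 (1.42.0), limma voom (3.58.1), leave-one-out fits, a replicate block, a transcript-length offset and the library split were alternatives, and the fits without the high-side day 4 CTRL libraries and with the adipocyte covariate, and levels per principal transcript, were added after the data were seen. The script was tested on simulated counts. The split is the joint level of the genes that correlate with Rnf10 above 0.9. The subunit genes, the lists and the rule for named genes were chosen with earlier results of these data known; genes named outside the rule were chosen after their values were seen. The rule took, for each day and complex, the called subunits with the largest change (up to 10 a direction) or else the smallest p, the subunits called on most days, the 5 highest and 5 lowest per kilobase, all of complex II, the isoforms, and the 2 largest called changes a day in each other list. A gene of the list of other structural subunits is not reported here.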

Additional observations from a re-analysis of the deposited data

Results flagged for a closer look

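Of 99 groups of 4 or 5 values tested for a single distant sample, 2 held one, where chance gives about 1 in 20, or 4.95. On day 1 Ndufv3 was at 56.3 CPM in CTRL replicate 4 and at most 43.2 CPM in the other CTRL libraries, and on day 4 Cox5b was at 31.2 CPM in CTRL replicate 2 and at most 22.8 CPM in the others. Both libraries were the highest of their group for most subunit genes (52 and 46 of 57).

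The EXP effect on Ndufa8 differed between days, with a log2 fold change 0.90 larger on day 4 than on day 1 (adjusted p = 0.0458 in edgeR's quasi-likelihood test). The direction of the difference was positive in 52 of the 57 subunit genes, and Ndufa8 was the only one called.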

How the results depend on the processing

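Leaving out 1 library at a time, the number of subunit genes called higher ranged from 2 to 13 on day 1, 0 to 4 on day 2 and 3 to 36 on day 4, and the median log2 fold change from 0.08 to 0.33, 0.31 to 0.34 and 0.38 to 0.72. The share of all genes called higher ranged from 10.8% to 14.4%, 3.26% to 8.24% and 5.94% to 15.1% on these days. The number called lower on day 1 ranged from 0 to 1, day-dependent genes from 0 to 2 and genes changing over days within EXP from 0 to 1. DESeq2's test called 4 genes higher on day 2, beside 9.63% of all genes, and 1 day-dependent gene. Limma voom called 12 higher and 2 lower on day 1 (15.8% and 17.3% of all genes), and 14 and 1 on day 2 (13.5% and 12.5%). With library totals without TMM, 15, 38 and 46 were called higher on days 1, 2 and 4 (19.4%, 23.9% and 24.3% of all genes). In that fit 0 were called lower on day 1 (9.87% of all genes) and 0 over days within EXP, with medians of 0.80 on day 2 and 0.90 on day 4. Without the filter on low counts 3 were called higher on day 1, beside 5.7% of all genes. With each day fitted on its own 2, 14 and 2 were called higher, beside 14.9%, 11.9% and 4.68% of all genes. In that fit 0 were called lower on day 1, beside 14.8% of all genes.

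Replicate numbers did not pair the libraries (correlations of same-numbered libraries -0.0664 to 0.164), and with a replicate block 8, 5 and 17 genes were called higher and 0 over days within EXP. The length offset gave 5 higher and 2 lower on day 2 (8.57% and 6.35% of all genes), 12 and 1 on day 4 (12.4% and 9.35%) and 9 lower on day 1 (15.9%). The medians of the subunits were -0.0764, 0.18 and 0.24, with 2 day-dependent genes and 3 within EXP. With the replicate block added it gave 7 higher and 2 lower on day 2 (7.65% and 5.87% of all genes), 4 higher on day 4 (7.28%) and 8 lower on day 1 (13.5%). The medians were then -0.0892, 0.18 and 0.20, with 0 within EXP. The split as covariate gave 3, 5 and 11 higher, beside 13.8%, 8.33% and 9.71% of all genes, and 0 within EXP. The low side alone gave 6 on day 2 and 0 on day 4, and the high side alone 1 higher and 0 lower on day 1. Without the high-side day 4 CTRL libraries 4 were called higher on day 2 (7.55% of all genes), 2 on day 4 (4.27%), 0 lower on day 1 (13.7%) and 0 within EXP. With the adipocyte covariate 3, 1 and 0 were called higher (11.7%, 3.85% and 0.291% of all genes), 0 lower on day 1 (12.6%) and 0 within EXP. The cause of these changes was not tested, except that fits with fewer libraries have fewer degrees of freedom. Of the 32 calls of single subunit genes, 26 were followed over all alternatives, leaving out Ndufa9, Ndufb8, Ndufs3, Ndufs5, Ndufv1 and Ndufv2 on day 4, and they were kept in 735 cases, lost in 227 and reversed in 0.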
